A study of Mus musculus with 15 samples.

Results

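The Hedgehog pathway was examined through 10 genes, taken by their symbols from a table of 22063 genes, and each was present once. They were the ligands Ihh and Shh, the receptor Ptch1, the signal transducer Smo, the transcription factors Gli1, Gli2 and Gli3, the ligand-binding inhibitor Hhip and the forkhead factors Foxf1 and Foxl1. RNA was sequenced from the colon of C57BL/6 mice labelled WT, in 3 groups of 5 libraries. The control group was labelled Control. The model group was labelled AOM/DSS, for azoxymethane, a carcinogen, and dextran sulfate sodium, which injures the colon epithelium. The WMW-H group carries that name alone as its treatment, and the series presents it as a therapy of the AOM/DSS model with the herbal formula Wumei Wan. The labels give no age, sex, dose or schedule, and do not say whether each library came from a separate animal, so the p-values measure only the spread between these libraries.

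In the gut, Hedgehog ligands are secreted by epithelial cells and act mainly on the stroma beneath them. Ligand binding to Ptch1 lifts its block on Smo, and the GLI factors then switch on targets that include Gli1, Ptch1 and Hhip. Ptch1 and Hhip both hold ligand back, so the pathway limits itself. In the adult colon Ihh comes from differentiated epithelium, Foxf1 is a transcription factor of the gut mesenchyme downstream of Hedgehog, and Foxl1 marks telocytes, the stromal cells that lie against the epithelium and supply it with Wnt and BMP signals.

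Levels are given in FPKM (fragments per transcript length and sequencing depth), which allows genes to be compared per length. The libraries held 16300000 to 21100000 fragments as read from the low values, and correlations of log2(FPKM + 1) ran from 0.992 to 0.995 within groups. WMW-H replicate 3 stood apart on the third principal component, with a score of -16.66 against a range of -1.56 to 5.72 for the rest. Leaving it out changed the call of 1 Hedgehog gene, Ptch1 in WMW-H against model. The labels give colon epithelial cells as the cell type, but the libraries held stroma: the smooth muscle actin Acta2 was at 497 ± 10.4 FPKM (SD, n = 5) and the collagen Col3a1 at 71.3 ± 2.63 FPKM in control, beside the epithelial gene Epcam at 733 ± 4.40 FPKM. In such bulk samples, fewer cells of a type and less RNA per cell cannot be told apart. A gene was called when its adjusted p in limma was under 0.05, and tested when it reached 1 FPKM in at least 5 libraries. Of the 10 Hedgehog genes 8 were tested. Shh and Gli3 stayed under 1 FPKM in every library, and Gli2 and Foxl1 passed only through model and WMW-H libraries, so a rise from control was partly fixed for them.

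In model, the ligand Ihh, Ptch1, Smo, Gli2, Foxf1 and Foxl1 rose and Gli1 and Hhip fell. As deposited, the target genes Ptch1, Gli1 and Hhip thus did not move in 1 direction. The call of the rise of Ptch1 depended on the scaling, as given below. Over all tested genes, 45.5% were called higher and 20.6% lower, against 6 and 2 of the 8 Hedgehog genes. Either direction was called for 66.1% of genes, so a call alone does not set these genes apart. The libraries of model and control did not overlap for 6 of the 8 genes, and for 52.9% of all genes. In WMW-H against model, Foxf1 rose and Ihh, Smo and Foxl1 fell, where 25.9% of all genes were called higher, 40.9% lower and 66.8% either way. Here 4 of 8 did not overlap, beside 51.2% of all genes. In WMW-H against control, Ptch1, Gli2, Foxf1 and Foxl1 were higher and Ihh and Hhip lower, where 35.4% of all genes were called higher, 24.1% lower and 59.5% either way. Here 6 of 8 did not overlap, beside 42.3% of all genes. The median change of all genes on the log2(FPKM + 1) scale was 0.12, -0.07 and 0.05 in these comparisons, which share groups pairwise. With median-of-ratios size factors, the split of calls in model against control changed from 5881 higher and 2658 lower to 3924 and 3979. Small rises in model are therefore also given with size factors below.

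**Figure D1:**
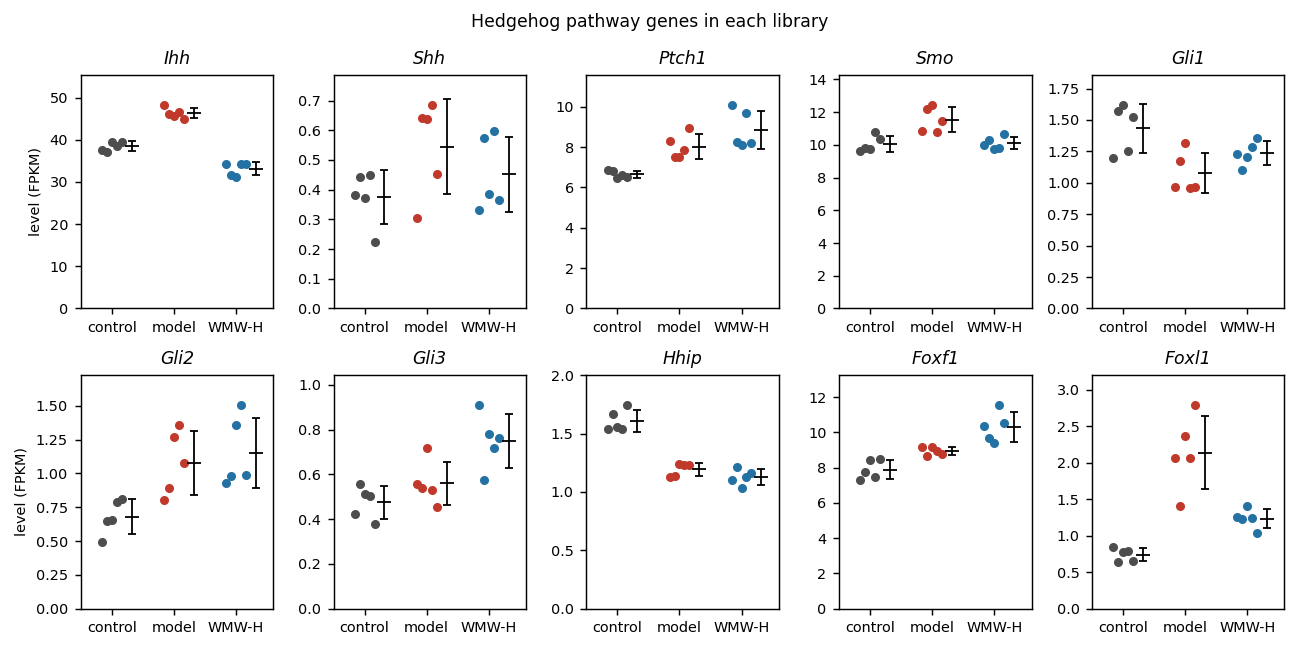
Level in FPKM of each of the 10 Hedgehog pathway genes (vertical axes, each from 0) in the 5 libraries of control, model and WMW-H; points are libraries, and the bars beside them give the mean and SD. Ihh and Foxl1 are highest in model, Hhip is highest in control, and Foxf1 is highest in WMW-H.

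Ihh, the Indian hedgehog ligand, was the most abundant of the 10 genes. It was at 37.7, 37.0, 39.5, 38.6 and 39.6 FPKM in the control libraries, at 48.2, 46.2, 45.6, 46.6 and 45.0 FPKM in model and at 34.1, 31.6, 31.2, 34.2 and 34.2 FPKM in WMW-H. The 3 groups did not overlap, with every model library above and every WMW-H library below all control libraries. Ihh rose in model by 0.26 on the log2 scale (SE 0.03, 1.21-fold by the means, limma adjusted p = 2.61e-06). The rise kept its call with size factors, at 0.13. In WMW-H Ihh fell by 0.47 against model (limma adjusted p = 1.95e-09), to 0.714 of the model mean, and by 0.21 against control (limma adjusted p = 3.85e-05).

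Differentiated colonocyte markers, summed, were lower in model, where Ihh was higher. These 9 markers summed to 7169 to 7337 FPKM in control, 5208 to 5249 in model and 6157 to 6269 in WMW-H, with 6 lower and 2 higher in model and none at 0. The 9 epithelium markers summed to 6537 to 6607, 6691 to 6784 and 5489 to 5755 FPKM, with 3 lower and 5 higher in model and 6 lower and 2 higher in WMW-H against model. Of all genes 20.6% were called lower and 45.5% higher in model, and 40.9% and 25.9% in WMW-H against model. Relative to the mean log2 level of the colonocyte markers, Ihh was 0.47 higher in model than in control, and it was 0.50 lower in WMW-H than in model, each with no overlap. In WMW-H against control the same difference was -0.03 and the groups overlapped; beside the epithelium markers it was -0.06 and they overlapped too. Ihh was thus below control in WMW-H as deposited, but overlapped control when set against either marker list.

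Shh, the sonic hedgehog ligand, and Dhh, the desert hedgehog ligand and not among the 10 genes, were rare. Ihh made 98.3% ± 0.58 of the summed FPKM of the 3 ligands in control (SD, n = 5), and this share was 97.7% ± 0.85 in model and 98.0% ± 0.52 in WMW-H. Shh was at 0.382, 0.443, 0.372, 0.450 and 0.225 FPKM in control, at 0.305, 0.643, 0.637, 0.685 and 0.454 in model and at 0.333, 0.574, 0.386, 0.598 and 0.365 in WMW-H. The groups overlapped in each comparison. These values correspond to 12 to 37 fragments per library, so the precision is low. The log2 difference of 0.16 in model against control gave a two-sided exact permutation p of 0.0794, where 0.0079 is the smallest that 5 against 5 libraries allow. In the fit without a filter its 95% interval ran from 0.0025 to 0.327 (limma adjusted p = 0.0854). In the 2 comparisons of WMW-H the exact permutation p was 0.31 against model and 0.286 against control. Shh also shares 807 of 2847 exonic bases with transcripts on the other strand in GENCODE M21, and the strand was not stated to be used in counting.

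Ptch1, the receptor and itself a GLI target, was at 6.87, 6.82, 6.45, 6.60 and 6.51 FPKM in control and at 8.28, 7.52, 7.51, 7.85 and 8.96 FPKM in model. In WMW-H it was at 10.1, 8.27, 8.10, 9.69 and 8.19 FPKM. Control lay below all other libraries, while model and WMW-H overlapped. Ptch1 rose in model by 0.24 (SE 0.06, limma adjusted p = 0.00307), a call lost with size factors (0.12, adjusted p = 0.0962) and after quantile normalization (0.07, adjusted p = 0.356). It was higher in WMW-H than in control by 0.36 (limma adjusted p = 9.30e-05). Between WMW-H and model the difference of 0.13 did not pass (95% interval -0.01 to 0.26, limma adjusted p = 0.0833), but it passed with size factors (0.19, adjusted p = 0.0096), after quantile normalization (0.22, adjusted p = 0.00349), without model replicate 5 (adjusted p = 0.0313) and without WMW-H replicate 3 (adjusted p = 0.0448).

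Smo, the membrane protein that passes the signal inward, rose in model by 0.18 (SE 0.05, limma adjusted p = 0.00279) and fell in WMW-H against model by 0.17 (limma adjusted p = 0.0036). Its libraries stood at 9.63, 9.82, 9.75, 10.8 and 10.3 FPKM in control, at 10.9, 12.2, 12.4, 10.8 and 11.4 in model and at 10.002, 10.3, 9.74, 9.82 and 10.7 in WMW-H. The model range only just cleared the control range, since control replicate 4 and model replicate 4 were both at 10.8 FPKM. With size factors neither change passed (0.06 with adjusted p = 0.276, and -0.10 with adjusted p = 0.0596). WMW-H and control overlapped, with a difference of 0.01 (95% interval -0.09 to 0.11), whose sign turned with size factors, after quantile normalization and without single libraries (control replicates 1, 2 and 3, and WMW-H replicate 5).

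Hhip, which binds Hedgehog ligands at the surface of the receiving cell and is a target of the pathway, moved opposite to Ptch1 as deposited. It was at 1.54, 1.66, 1.55, 1.54 and 1.74 FPKM in control, at 1.13, 1.14, 1.24, 1.23 and 1.23 in model and at 1.1, 1.21, 1.03, 1.13 and 1.16 in WMW-H. Every control library was above every library of the other groups. Hhip fell by 0.25 in model (SE 0.05, limma adjusted p = 0.000442) and was lower by 0.29 in WMW-H than in control (limma adjusted p = 0.000115). With size factors both differences were wider, at -0.32 and -0.33. Between WMW-H and model its difference of -0.05 did not pass (95% interval -0.16 to 0.06, limma adjusted p = 0.45).

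Gli1, whose transcript is the usual readout of pathway activity, also fell in model. It was at 1.20, 1.57, 1.62, 1.25 and 1.53 FPKM in control, at 0.965, 1.17, 1.32, 0.961 and 0.970 in model and at 1.23, 1.101, 1.21, 1.29 and 1.36 in WMW-H. The lower 2 control libraries lay within the model range, so the groups overlapped. The fall was 0.23 (SE 0.07, 0.751 of the control mean, limma adjusted p = 0.00903), and 0.30 with size factors. WMW-H lay between the other groups. Neither its difference of 0.11 from model (95% interval -0.04 to 0.26, limma adjusted p = 0.183) nor that of -0.12 from control (95% interval -0.27 to 0.03, limma adjusted p = 0.157) passed, though both passed after quantile normalization (adjusted p = 0.0435 and 0.0262). In GENCODE M21, 327 of 4995 exonic bases of Gli1 are shared with genes on the other strand, among them Arhgap9. Arhgap9 had 3.58 ± 0.46 FPKM in control, 4.62 ± 0.66 in model and 3.87 ± 0.80 in the WMW-H libraries, the opposite order to Gli1, and its part in the Gli1 values was not tested.

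Gli2, the main activating GLI factor, and Gli3, mainly a repressor, were low. Gli2 was at 0.490, 0.648, 0.654, 0.788 and 0.812 FPKM in control, at 0.803, 0.894, 1.27, 1.36 and 1.08 in model and at 0.928, 0.979, 1.36, 1.503 and 0.985 in WMW-H. Only model replicate 1 lay within the control range, and WMW-H was above control throughout. Since no control library reached 1 FPKM, the rises of Gli2 from control were partly fixed by the filter. Gli2 rose in model by 0.31 (SE 0.09, 1.59-fold by the means, limma adjusted p = 0.00946), a call kept with size factors (0.24) and lost after quantile normalization (0.07, adjusted p = 0.544). Its difference in WMW-H was 0.35 against control (limma adjusted p = 0.00423), lost after quantile normalization (0.19, adjusted p = 0.114), and 0.05 against model (95% interval -0.15 to 0.25, limma adjusted p = 0.676), with the sign turned without model replicate 1 or WMW-H replicate 4 (-0.0020 and -0.0093). Gli3 was at 0.423, 0.559, 0.511, 0.503 and 0.379 FPKM in control, at 0.559, 0.539, 0.718, 0.530 and 0.454 in model and at 0.908, 0.574, 0.778, 0.719 and 0.762 in WMW-H. All WMW-H values of Gli3 were above all control values, while model overlapped both. The exact permutation p for Gli3 was 0.159 in model against control, 0.0159 in WMW-H against model and 0.0079, the smallest possible, in WMW-H against control. Without a filter the last 2 differences, 0.16 and 0.24, had limma adjusted p = 0.0208 and 0.00181.

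The stretches before the transcription start of Ptch1, Hhip and Gli2 were searched on both strands. The search was for the sequence that GLI factors bind, GACCACCCA, and for its core ACCACCC, which lies within it. Ptch1 and Hhip are targets that moved in opposite directions as deposited, though the rise of Ptch1 in model lost its call with size factors. RefSeq start sites for 6 of the 10 genes were matched in build GRCm38.p6: Ihh, Ptch1, Smo, Gli2, Gli3 and Hhip. Over 250 bases before the start, the full sequence was in none of the 6 and in 0.225% of all 32851 windows of that length, and the core was in that of Gli2 alone and in 3.92% of all windows. The stretches are written 5′ to 3′ on the strand of the gene, with a core match, here on the other strand, in capitals. They are Ptch1 at chr13:63565736-63565985 (minus strand), Hhip at chr8:80058009-80058258 (minus strand) and Gli2 at chr1:119053620-119053869 (minus strand).
Ptch1: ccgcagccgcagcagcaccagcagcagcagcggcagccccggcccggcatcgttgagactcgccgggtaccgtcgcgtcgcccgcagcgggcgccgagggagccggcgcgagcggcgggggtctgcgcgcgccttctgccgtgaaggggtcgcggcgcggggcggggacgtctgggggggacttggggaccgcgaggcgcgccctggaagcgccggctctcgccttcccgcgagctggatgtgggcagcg
Hhip: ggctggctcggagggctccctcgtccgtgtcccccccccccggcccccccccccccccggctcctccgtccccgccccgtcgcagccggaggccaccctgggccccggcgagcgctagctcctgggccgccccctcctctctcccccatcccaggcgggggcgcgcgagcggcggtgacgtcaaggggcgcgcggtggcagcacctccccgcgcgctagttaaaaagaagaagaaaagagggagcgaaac
Gli2: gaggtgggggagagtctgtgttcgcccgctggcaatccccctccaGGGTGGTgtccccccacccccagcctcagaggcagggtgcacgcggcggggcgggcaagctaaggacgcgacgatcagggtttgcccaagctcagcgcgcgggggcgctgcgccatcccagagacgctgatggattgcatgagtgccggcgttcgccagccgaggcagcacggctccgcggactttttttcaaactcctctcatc
The windows of Ptch1 and Hhip were 78.4% and 76.0% G or C, and neither held the core. A match or its absence in this window says nothing of binding elsewhere.

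Foxf1, the mesenchymal forkhead factor, rose at each step from control to model to WMW-H. It was at 7.29, 7.77, 8.44, 7.45 and 8.47 FPKM in control, at 9.18, 8.68, 9.15, 8.92 and 8.75 in model and at 10.3, 9.68, 9.39, 11.5 and 10.5 in WMW-H. The 3 groups did not overlap. The rise in model was 0.16 (SE 0.05, limma adjusted p = 0.0131) and was lost with size factors (0.05, adjusted p = 0.463), and after quantile normalization its sign turned (-0.01, adjusted p = 0.917). WMW-H was higher than model by 0.18 (limma adjusted p = 0.00699) and than control by 0.35 (1.31-fold by the means, limma adjusted p = 3.50e-05), and with size factors by 0.25 and 0.30.

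Foxl1, the telocyte factor, had the widest change of the 8 tested genes. It was at 0.839, 0.636, 0.782, 0.790 and 0.651 FPKM in control, at 2.07, 1.41, 2.36, 2.06 and 2.79 in model and at 1.26, 1.23, 1.40, 1.24 and 1.04 in WMW-H. All model libraries were above all others, though model replicate 2, at 1.41, was close to WMW-H replicate 3, at 1.40. The values correspond to 30 to 48 fragments per library in control, 77 to 134 in model and 46 to 68 in WMW-H. Foxl1 rose in model by 0.84 (SE 0.09, 2.89-fold by the means, limma adjusted p = 6.60e-07) and by 0.76 with size factors. In WMW-H it fell by 0.48 against model (limma adjusted p = 0.000293), to 0.577 of the model mean, and stayed above control by 0.36 (limma adjusted p = 0.00367). Since no control library reached 1 FPKM, the rises of Foxl1 from control were partly fixed by the filter.

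**Figure D2:**
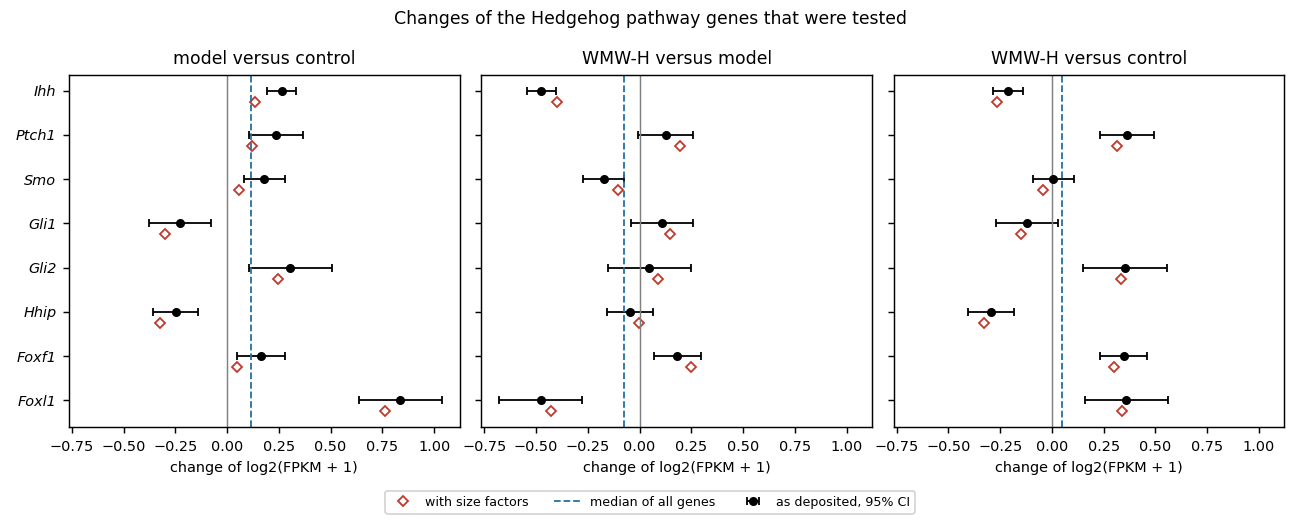
Change of log2(FPKM + 1) (horizontal axis) of the 8 tested Hedgehog genes in the 3 comparisons, with 95% intervals from limma as deposited (filled points), the value with size factors (open diamonds) and the median change of all tested genes (dashed line). In model against control, Gli1 and Hhip lie below 0 at -0.23 and -0.25, while Ptch1, Smo and Foxf1 lie at 0.24, 0.18 and 0.16 and move toward 0 with size factors.

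Stromal markers moved with the groups as well. The 10 fibroblast markers summed to 364 to 380 FPKM in control, 592 to 610 in model and 613 to 651 in WMW-H. In model 8 of them were higher and 2 lower, in WMW-H against model 4 were higher and 6 lower, and in WMW-H against control 8 were higher and 0 lower. The 9 telocyte markers, Foxl1 among them, summed to 46.3 to 50.1, 77.5 to 83.3 and 79.8 to 81.6 FPKM, with 6 higher and 2 lower in model, 5 and 3 in WMW-H against model, and 9 and 0 in WMW-H against control. The 8 smooth muscle markers stayed level as a sum, at 2027 to 2088, 2046 to 2112 and 2035 to 2151 FPKM, with 3 higher and 1 lower in model and 3 higher and 3 lower in WMW-H against either other group. No marker of these 3 lists was at 0 throughout. Of all genes 45.5% were called higher and 20.6% lower in model. In WMW-H the shares were 25.9% and 40.9% against model, and 35.4% and 24.1% against control.

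The stromal Hedgehog genes were therefore also set against the mean log2 level of each list, with Foxl1 taken out of the telocyte list. On log2(FPKM + 1) the change of a low gene is narrowed more than that of abundant markers. A pseudocount of 0.1, chosen after seeing the data, is therefore also given where it moved a value by over 1.5 times. For the falls of Foxl1 in WMW-H against model it is given too, though they moved by less. Relative to the fibroblast markers, Hhip was 0.80 lower and Gli1 0.78 lower in model than in control, with no overlap, and in WMW-H they were 0.96 and 0.79 lower than in control. Ptch1 and Foxf1, which rose as deposited, were 0.32 and 0.39 lower in model on this scale, also with no overlap. Foxl1 was higher in model by 0.28 with overlap, and by 0.81 with no overlap at a pseudocount of 0.1. Gli2 was at -0.25 with overlap, and at 0.02 with overlap at the lower pseudocount, so no direction can be read for it. Relative to the smooth muscle markers, the direction of each tested stromal gene in model was that of the deposited values: Ptch1 was 0.21 higher and Foxl1 0.81 higher (1.36 at a pseudocount of 0.1), and Hhip 0.27 lower, with no overlap, while Gli1, 0.25 lower, overlapped. At a pseudocount of 0.1 Hhip was at -0.43 with no overlap and Gli1 at -0.41 with overlap. Hhip and Gli1 thus had lower means in model against each of the 3 lists. As the means of the fibroblast, telocyte and smooth muscle lists themselves rose in model, by 0.55, 0.43 and 0.02, that sign was fixed by the deposited falls. It therefore does not bear on the part of cell composition, which was not tested. The sign of Ptch1, Smo and Foxf1 differed between the fibroblast and smooth muscle markers, though Smo overlapped against the latter. These signs were the same at a pseudocount of 0.1. Foxl1 fell below model in WMW-H against each list, by 0.59, 0.60 and 0.52 for fibroblast, telocyte and smooth muscle markers, with no overlap; at a pseudocount of 0.1 these were -0.85, -0.89 and -0.77.

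**Figure D3:**
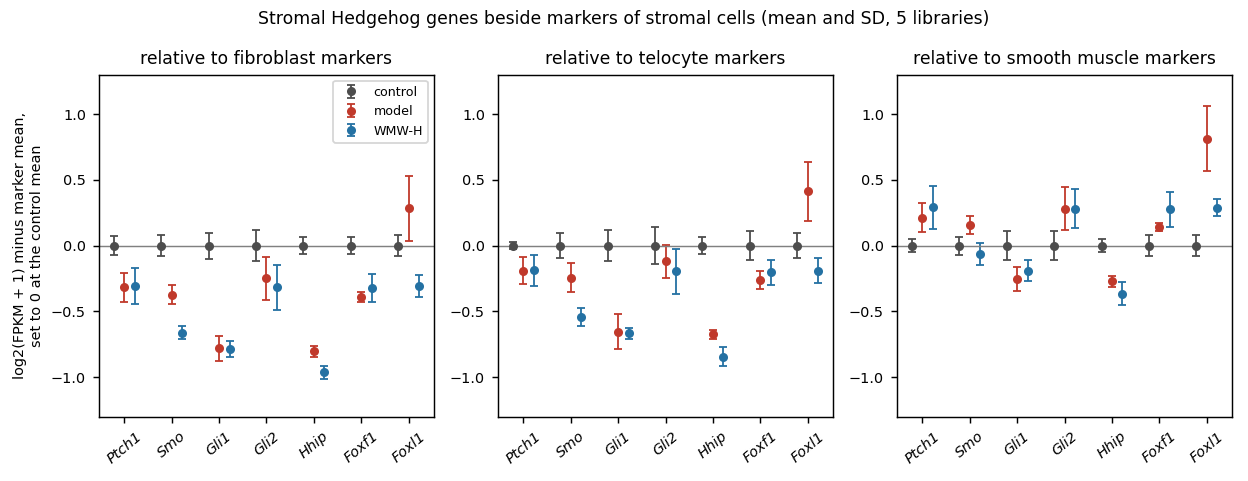
Level of the 7 tested stromal Hedgehog genes as log2(FPKM + 1) minus the mean of the marker list named above each panel, shifted so that the control mean is 0 (vertical axis); points are means and bars the SD of 5 libraries in control, model and WMW-H. Hhip and Gli1 lie below control in all 3 panels, and Foxl1 in model is at 0.28, 0.41 and 0.81, which a pseudocount of 0.1 widens to 0.81, 0.92 and 1.36.

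RNA of other origin also differed between groups. The 9 pancreas markers were all lower in model, at 19970 to 20553 FPKM summed in control, 4607 to 4705 in model and 7532 to 8135 in WMW-H. The 7 male accessory gland genes in the table summed to at most 3.33 FPKM in control and 4.26 in WMW-H but to 2535 to 2677 in model. In model against control, 6 of 7 endothelium, 6 of 7 Paneth cell and 4 of 4 tested squamous epithelium markers were higher. Sprr3 of the last list was at 0 throughout. No control library reached 1 FPKM for the 4 tested squamous markers, or for the Paneth cell markers Defa24, Defa17 and Defa3. Such markers entered the test only by their levels outside control, which built in part of the rise. Of the leukocyte markers 4 of 8 were higher and 3 lower, and of the enteric neuron and glia markers 1 of 9 was higher and 5 lower. Over all tested genes 45.5% were called higher and 20.6% lower in this comparison. The leukocyte share called higher, 50%, was thus near that of all genes. The part of such RNA in the values above was not tested.

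Among the other genes of ligand processing and release, 5 of 6 tested genes rose in model and 1 fell, with a median change of 0.41 beside 0.12 for all genes, of which 45.5% were called higher. With size factors 4 rose, with the call of Hhat, the acyltransferase that lipidates the ligand, lost (0.17, limma adjusted p = 0.134), beside 30.4% of all genes. Scube1, a secreted protein that frees lipid-bearing ligand from its source, went from 4.49 ± 0.53 FPKM in control to 10.9 ± 0.62 in model and 8.42 ± 0.21 in WMW-H (SD, n = 5). Disp1, the transporter that exports the ligand, went from 3.41 ± 0.24 to 4.92 ± 0.36 FPKM and was at 3.57 ± 0.50 in WMW-H. Disp1 rose in model by 0.42 (limma adjusted p = 6.90e-05) and fell in WMW-H by 0.38 (limma adjusted p = 0.000204), and its difference of 0.04 between WMW-H and control did not pass (limma adjusted p = 0.617). The proteases Adam10 and Adam17 rose by 0.45 and 0.39 in model and did not pass in WMW-H against model, at -0.07 and -0.09, values whose sign turned after quantile normalization, and that of Adam10 also with size factors, but which passed as lower after rescaling to TPM (-0.13 and -0.14, limma adjusted p = 0.00614 and 0.0229). Adam10 also passed without WMW-H replicate 5 (limma adjusted p = 0.0345). In WMW-H against model, 2 of the 6 fell and 0 rose, beside 40.9% and 25.9% of all genes.

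Coreceptors, which help or hinder ligand at Ptch1, moved both ways. In model 3 of 6 tested genes were higher and 2 lower, beside 45.5% and 20.6% of all genes. With size factors 3 were higher and 3 lower, beside 30.4% and 30.8% of all genes. Boc, a coreceptor, fell from 11.0 ± 0.27 to 6.09 ± 0.48 FPKM in model (-0.76, limma adjusted p = 1.61e-09) and rose to 7.82 ± 0.57 in WMW-H (0.32 against model, limma adjusted p = 7.49e-05). Gas1 and Cdon, coreceptors of the same kind, rose instead, Gas1 from 3.19 ± 0.28 to 5.73 ± 0.46 FPKM and Cdon by 0.39 on the log2 scale. The 3 coreceptors thus did not share a direction. The glypican Gpc4 rose from 9.43 ± 0.48 to 20.7 ± 1.16 FPKM and stood at 14.0 ± 0.34 in WMW-H, while Gpc3, a glypican that competes with Ptch1 for ligand, fell by 0.23 in model and rose by 0.44 in WMW-H against model. In WMW-H against model 3 of 6 were higher and 1 lower, beside 25.9% and 40.9% of all genes.

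Of 23 genes of signal relay and GLI control, 19 were tested. In model 12 of the 19 rose and 2 fell, beside 45.5% and 20.6% of all genes. Their median change was 0.25 beside 0.12 for all genes. With size factors 9 rose and 3 fell, beside 30.4% and 30.8% of all genes, and Prkaca, Csnk1a1 and Btrc lost their calls. Sufu, which holds GLI factors inactive, rose from 5.29 ± 0.32 to 7.65 ± 0.64 FPKM in model (0.46, limma adjusted p = 2.56e-06) and fell to 4.85 ± 0.31 in WMW-H (-0.56 against model, limma adjusted p = 2.31e-07). Tulp3, which carries receptors into the primary cilium where the pathway works, went from 2.26 ± 0.28 to 5.53 ± 0.26 FPKM and was at 3.08 ± 0.59 in WMW-H. Both of these relay genes were thus highest in model. Ulk3 and Iqce of the same list were highest there too, with means of 4.22 ± 0.60 and 3.94 ± 1.36 FPKM. The mean of Iqce was raised by model replicate 1, at 6.33 FPKM, where the model median was 3.31 FPKM. Cul3 and Csnk1a1 did not share this order. Cul3, part of the ligase that degrades GLI factors through Spop, was lower in model by 0.22 and higher again in WMW-H by 0.23. Csnk1a1, a kinase that acts on GLI factors, stood highest in WMW-H, at 128 ± 5.16 FPKM against 93.4 ± 1.18 in model. In WMW-H against model 3 of the 19 rose and 9 fell (15.8% and 47.4%), beside 25.9% and 40.9% of all genes. With size factors 5 rose and 8 fell in that comparison (26.3% and 42.1%), beside 31.6% and 33.5% of all genes, and Gsk3b lost its call.

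All 15 other mesenchymal genes placed downstream of Hedgehog were called in model, 11 higher and 4 lower, with a median of 0.26, where 66.1% of all genes were called. With size factors 8 were higher and 4 lower, beside 30.4% and 30.8% of all genes, and Bmp4, Nkx2-3 and Bcl2 lost their calls. Osr1, called higher, reached 1 FPKM only in model and WMW-H libraries, so its rise was partly fixed by the filter. Bmp7 and Cxcl14, which are also telocyte genes, rose from 3.21 ± 0.29 to 8.78 ± 0.36 FPKM and from 9.72 ± 0.52 to 22.2 ± 0.62 FPKM, and fell in WMW-H to 4.93 ± 0.13 and 16.4 ± 0.41 FPKM, the order of groups seen for Foxl1. Sfrp1, a secreted Wnt antagonist, rose at both steps, from 8.06 ± 0.40 to 13.2 ± 0.27 and 23.5 ± 0.81 FPKM, the order seen for Foxf1. Osr2, a transcription factor of the mesenchyme, went the other way, from 41.5 ± 1.29 down to 23.3 ± 0.71 in model and up to 36.0 ± 2.83 FPKM in WMW-H. In WMW-H against model 7 of the 15 mesenchymal genes rose and 4 fell, where 25.9% of all genes were called higher and 40.9% lower. In WMW-H against control 11 rose and 1 fell, where 35.4% of all genes were called higher and 24.1% lower. The median in this last comparison was 0.36 beside 0.05 for all genes.

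**Figure D4:**
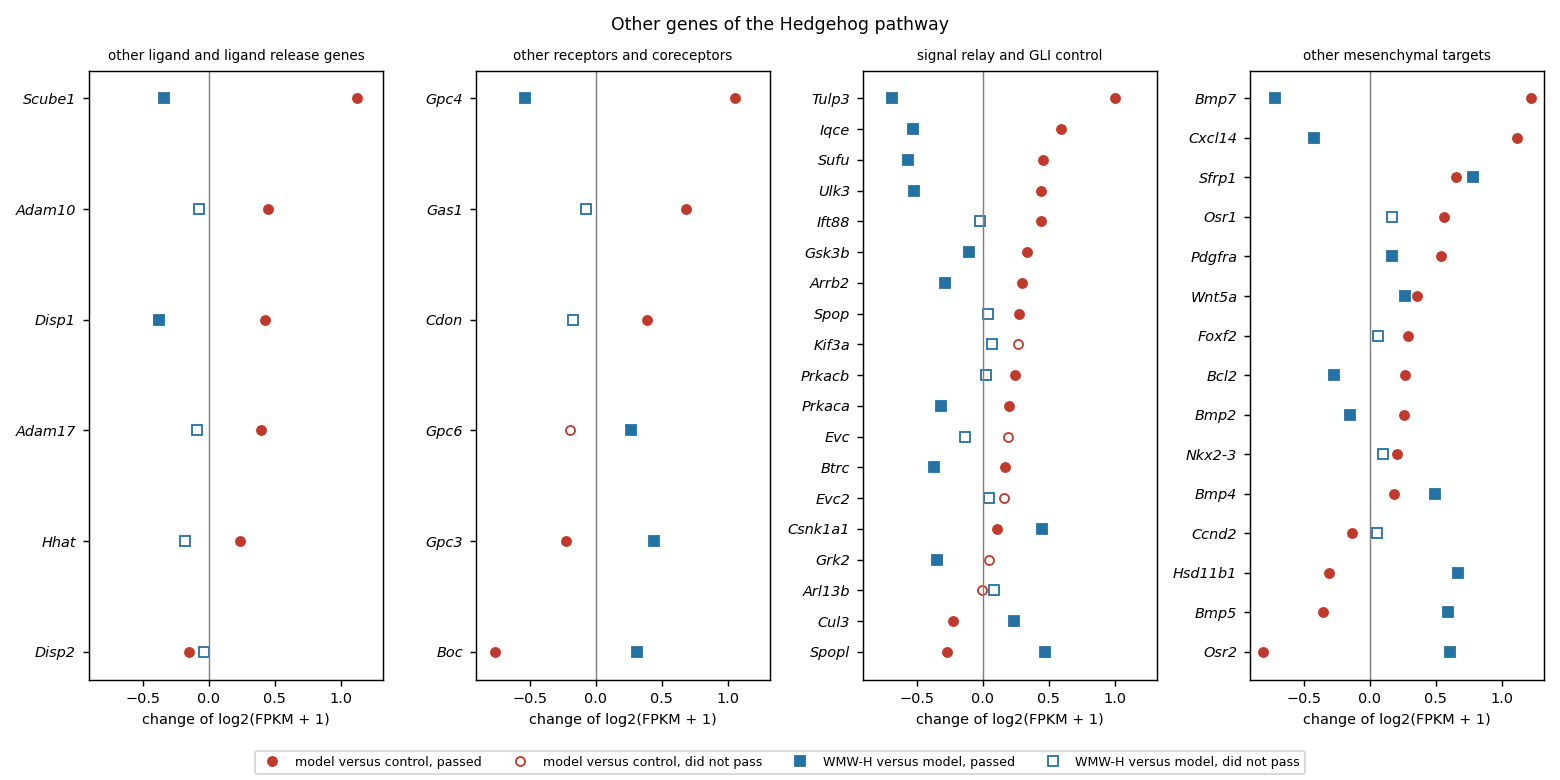
Change of log2(FPKM + 1) (horizontal axis) of the tested genes of 4 other lists of the pathway in model against control (circles) and WMW-H against model (squares), filled where the gene passed; both comparisons share the model libraries. Scube1, Gpc4, Tulp3 and Bmp7 head the lists in model, at 1.13, 1.06, 1.00 and 1.22, and Boc and Osr2 are lowest in theirs, at -0.76 and -0.81.

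The tested genes with the profile nearest to a called Hedgehog gene were found by the root mean square difference between log2(FPKM + 1) profiles over the 15 libraries, each centred on its mean. For Ihh these were Jund, St14 and Cd177, at 0.0392, 0.0394 and 0.0399, where the profile of Ihh itself had a root mean square of 0.199. St14, a membrane protease of epithelia, had 147 ± 4.03 FPKM in control, 177 ± 5.63 in model and 128 ± 2.05 in the WMW-H libraries. For Foxl1 they were Wipf3, H2ac25 and Notch4, at 0.115, 0.117 and 0.122 beside 0.369 for Foxl1 itself. Hhip was nearest to Slc7a1, Gfus and Atp5a1 (0.0374 to 0.0452), Ptch1 to Ahcyl1, Rabgap1 and Trim44 (0.0708 to 0.0716) and Foxf1 to Tmem183a, Ralgapa2 and Golga7 (0.0522 to 0.0643). Gli1, at 0.078 from Tmx4 beside 0.128 for itself, and Gli2, at 0.106 from Rbmx2 beside 0.207, had no close neighbour relative to their own spread. Among the 8 Hedgehog genes themselves, the nearest pairs were Ptch1 with Foxf1, at 0.104, and Gli1 with Hhip, at 0.118. The profiles of Ptch1 and Foxf1 had a root mean square of 0.174 and 0.159, and those of Gli1 and Hhip of 0.128 and 0.135. Neither pair was thus close relative to its own spread, least of all Gli1 with Hhip.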

How the data were processed

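Polyadenylated RNA of the colon was sequenced in 15 libraries, 5 each of control, model and WMW-H; per the labels' protocols, the kit was NEBNext Ultra and the instrument a NovaSeq 6000. The authors deposited FPKM values, per the file headers. Tools listed, per the submitters' processing notes, are HISAT2, RSEM, StringTie 1.3.1, Bowtie2 2.2.8 and fastp 0.18.0, with no roles. A build or annotation is not given in the sources used here. FPKM totals ran from 507895 to 535410. Depth was read from the steps of low values in 3328 genes with 1 transcript in GENCODE M21 (90.2% of 6193 values within 0.1 of a whole fragment, where random values give 20%).

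The 12917 genes that reached 1 FPKM in 5 or more libraries were fitted as log2(FPKM + 1) in limma 3.58.1 (R 4.3.3), with a mean per group, a trended prior and two-sided Benjamini-Hochberg adjustment over all of them. The log2(FPKM + 1) scale understates changes of low genes. The fit was tested on simulated data. Named were the 10 genes and the 3 nearest profiles of each called gene. Of each pathway list, those with the smallest p were named, up to 4 in model versus control and 2 in WMW-H versus model. Dhh, Arhgap9 and marker genes were added for context. Outside this rule, genes that lost a call with size factors were named, and Osr1 for its limit by the filter. Ulk3 and Iqce were named for sharing the order of Sufu and Tulp3, and Spop as the partner of Cul3. The profiles nearest to Smo are not reported here. Members and lists were chosen with earlier results of these data known. Alternatives were 2 pseudocounts, 2 filters, 3 scalings, 2 other fits, a replicate block and leaving out each library.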

Additional observations from a re-analysis of the deposited data

Results flagged for a closer look

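In 87 groups of 5 libraries (the 10 Hedgehog genes and 19 other named genes of the pathway, in 3 groups each), 3 held a library far from the rest by Dixon's test, where chance gives about 1 in 20. None was a value of the 10 Hedgehog genes. Cdon was at 3.80 FPKM in control replicate 5, where the other control libraries were at 2.83 to 3.05. Sufu was at 5.84 FPKM in control replicate 3, beside 5.05 to 5.27 in the others. Tulp3 was at 5.98 FPKM in model replicate 3, beside 5.34 to 5.47 in the others.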

How the results depend on the processing

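Leaving out each library in turn moved the number of Hedgehog genes called higher in WMW-H against model between 1 and 2, and changed no other count of Hedgehog calls. With size factors 3 Hedgehog genes were called higher in model against control and 2 in WMW-H against model, and after quantile normalization 2 and 3. Over all genes the shares called higher were 30.4% and 31.6% with size factors, and 29.1% and 32.5% after quantile normalization. Over all genes, quantile normalization gave 3765 higher and 4167 lower calls in model against control. In that comparison Foxf1 turned after quantile normalization (-0.007), Csnk1a1 with size factors (-0.0234) and Grk2 with size factors (-0.0799, adjusted p = 0.0189, called lower) and quantile normalization (-0.0619); Grk2, not called as deposited, was called higher on TPM (0.0992, adjusted p = 0.00644) and without model replicate 5 (adjusted p = 0.0401). In WMW-H against model, Adam10 turned with size factors (0.0002) and quantile normalization (0.007), as did Adam17 (0.0167), Gas1 (0.0004) and Hhip (0.0021) after quantile normalization. Gli2 ranged from -0.0093 to 0.0948 without single libraries. In WMW-H against control, Smo turned with size factors (-0.0434) and quantile normalization (-0.0597) and ranged from -0.0121 to 0.0288 without single libraries. Disp1 turned after quantile normalization (-0.0297) and ranged from -0.014 to 0.0848. Cul3 turned with both scalings (-0.0437 and -0.0138) and ranged from -0.0057 to 0.0177. The cause was not tested. Same-numbered libraries did not deviate together (correlations from -0.047 to 0.030, with 1 of 15 highest for its own number). With the replicate number as a block, 5849 genes were called higher and 2636 lower in model against control, 3323 and 5251 in WMW-H against model and 4525 and 3073 in WMW-H against control. The block left every call of the 10 Hedgehog genes as it was, and Gsk3b lost its call in WMW-H against model (adjusted p = 0.0632). Depth limits the precision of Shh, with 12 to 37 fragments per library, and of Foxl1, with 30 to 134.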
